A study of Mus musculus with 3 samples.

Results

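The homeobox genes Meis1, Meis2, Meis3, Pbx2 and Pbx3 and the zinc finger genes Bcl11a and Bcl11b were followed through the cell types of the mouse vomeronasal organ (VNO). They were chosen by name as lineage factors, and they are 7 of the 32285 genes counted. The VNO detects pheromones at the base of the nasal septum. Its vomeronasal sensory neurons (VSNs) are either apical, with V1R receptors, or basal, with V2R receptors. The study made 3 single-cell RNA-seq libraries from male mice of a mixed C57 BL/6J and 129P2/OlaHsd background, 1 library per group. The P10 control was OMPCre heterozygous tissue from postnatal day 10, in which Cre is made from the Omp locus of olfactory and vomeronasal neurons. The P10 mutant was an OMPCreR26AP2e double heterozygote of the same age. It carries OMPCre too, together with a Rosa26 transgene for the basal transcription factor AP-2ε (Tfap2e), which is turned on in cells that have made Cre. The 3-month mutant had that same double heterozygous genotype, and its title gives the age as P90. Where 3 values follow each other without names, they are of these libraries in this order.

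Meis and Pbx proteins are homeodomain transcription factors of the TALE class. They bind DNA as partners of each other and of Hox proteins, and contact with a Meis partner helps to keep Pbx proteins in the nucleus. Bcl11a and Bcl11b are zinc finger transcription factors that work with the chromatin remodelling complexes NuRD and BAF, and both are also known from lymphocyte development. In the VNO, Meis2 is used as a marker of apical VSNs, and Bcl11b has been studied for its part in the choice between the V1R and V2R types.

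Meis2 and Bcl11b carried the main patterns below, so their promoters are shown first. Each is the window from RefSeq for GRCm38.p6 that runs from 250 bases before to 50 after the annotated start, 5′ to 3′ on the minus strand. The Meis2 window is chr2:116064570-116064869 and the Bcl11b window is chr12:108003365-108003664. Capitals mark GCCNNNGGC, the core of the motif of AP-2 factors, the family of the transgene product.
Meis2: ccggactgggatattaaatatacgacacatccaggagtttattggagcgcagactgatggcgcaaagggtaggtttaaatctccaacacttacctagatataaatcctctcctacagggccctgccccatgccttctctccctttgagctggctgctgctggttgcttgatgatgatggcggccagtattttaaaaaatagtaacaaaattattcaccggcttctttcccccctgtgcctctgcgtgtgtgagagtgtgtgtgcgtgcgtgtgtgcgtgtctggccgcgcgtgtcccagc
Bcl11b: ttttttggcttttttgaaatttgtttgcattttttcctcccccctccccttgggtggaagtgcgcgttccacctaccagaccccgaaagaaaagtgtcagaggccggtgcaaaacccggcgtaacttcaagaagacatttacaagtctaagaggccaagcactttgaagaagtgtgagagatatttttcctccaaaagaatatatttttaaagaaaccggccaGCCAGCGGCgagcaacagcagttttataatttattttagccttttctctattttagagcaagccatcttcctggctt
The letters GCCNNNGGC were found 1 time in the Bcl11b window and not in the Meis2 window. On both strands, 16.6% of 32851 promoter windows of the same length held them. The windows of Meis1, Meis3 and Bcl11a did not hold them either, that of Pbx2 did, and Pbx3 had no entry. TGACAG, a MEIS motif present in 19.2% of all windows, and TGATTGAT, a PBX motif present in 0.746%, were in none of the 6 windows found. These are matches of letters only, and nothing about binding follows from them.

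All members are protein coding. In GENCODE M21 for GRCm38, Meis1 (ENSMUSG00000020160) lies on chromosome 11 from 18879817 to 19018985 on the minus strand, and Meis2 (ENSMUSG00000027210) on chromosome 2 from 115863064 to 116065839 on the minus strand. Meis3 (ENSMUSG00000041420) lies on chromosome 7 from 16175090 to 16186504 on the plus strand. Pbx2 (ENSMUSG00000034673) lies on chromosome 17 from 34591266 to 34597400 on the plus strand, where it overlaps the counted gene Gpsm3 on the same strand. Reads in that overlap cannot be assigned with certainty, so Pbx2 values are uncertain. Pbx3 (ENSMUSG00000038718) lies on chromosome 2 from 34171457 to 34373142 on the minus strand. Bcl11a (ENSMUSG00000000861) lies on chromosome 11 from 24078056 to 24174123 on the plus strand, and Bcl11b (ENSMUSG00000048251) on chromosome 12 from 107910403 to 108003602 on the minus strand. Meis1, Pbx3 and Bcl11a overlapped other counted genes on the opposite strand only. Meis2, Meis3 and Bcl11b overlapped none.

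Barcodes with 200 to 9000 genes and at most 10% mitochondrial counts were kept, which left 4795, 3956 and 6960 cells with a median of 10236, 10766.5 and 5010.5 unique molecular identifiers (UMIs) per cell. Between 21 and 30 barcodes were shared by any pair of libraries, and at most 9 of them were kept in a pair. Clusters were named from marker genes. In every library progenitors held 5 of 5 progenitor markers, precursors 5 of 5, immature VSNs 6 of 6 and mature VSNs 5 of 5 of theirs, with Omp and Gnao1 among the last. The names came from these same markers, so this is no separate check of the stages. The 5 markers of main olfactory neurons summed to 80.9, 100.9 and 32.7 CPM (counts per 1000000 UMIs) in mature VSNs, where 4, 4 and 2 of them were seen and Cnga2 was at 0. Stages also held markers of other stages. In the P10 control, immature VSN markers summed to 2499 CPM in progenitors and 8117 CPM in precursors, against 2535 and 4611 CPM for their own. In mature VSNs they summed to 4185, 4227 and 2867 CPM, against 4652, 3747 and 2814 CPM for mature VSN markers. The 8 markers of gland cells summed to 1455, 58.5 and 805 CPM in progenitors, to 356, 43.4 and 2091 CPM in precursors, to 441, 86.7 and 3250 CPM in immature VSNs and to 412, 59.2 and 1340 CPM in mature VSNs, with 2 to 5 of the 8 seen. The part of these markers in the results was not tested. Names could not be given to 1223, 988 and 1068 cells, and 230, 141 and 125 more were left out as mixed neuronal sub-clusters. Doublets were kept in the main values, because the Scrublet caller marked only 3, 1 and 0 barcodes. As an alternative, the 315, 281 and 573 barcodes with the highest Scrublet scores were left out, a number set by the count of barcodes in the library and not by a limit on the score.

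A level in CPM is taken from the UMIs of a gene summed over the cells of a class, relative to all UMIs of those cells. Brackets hold exact 95% intervals, which cover counting error only. With 1 library per group and cells that are not replicates, no test was possible and no p-value is given. A member was called higher or lower where the ratio of CPM was at least 2 in either direction and its interval left out 1. It was compared only with at least 20 UMIs in both classes together. A VSN was V1R or V2R when at least 80% of at least 5 receptor UMIs were of that family.

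Along the lineage there were 47, 24 and 10 progenitors, 71, 28 and 17 precursors, 274, 122 and 69 immature VSNs and 169, 69 and 49 mature VSNs in the 3 libraries. From progenitors to precursors, the cells that come before neurons, 4 of the 6 members compared were called in the P10 control, where 22.6% of all genes compared were called. In the P10 mutant 3 of 6 were called (18.0% of all genes), and in the 3-month mutant 3 of 5 (18.4%). Bcl11b, Pbx3 and Meis2 were higher in precursors in each of the 3 libraries.

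Bcl11b had the largest ratio of precursors to progenitors in both P10 libraries, and Pbx3 in the 3-month mutant. In progenitors it was at 7.81 CPM [3.75, 14.4] in the P10 control, with 10 UMIs in 9 of 47 cells. P10 mutant progenitors held it at 1.72 CPM, with 1 UMI in 24 cells. The 3-month level was 43.9 CPM, and 1 of the 10 cells held 11 of the 12 UMIs. In precursors it was at 213 CPM [185, 243], 250 CPM [201, 306] and 191 CPM [139, 257]. The ratios were 27.2 [14.5, 57.6], 145 [25.4, 5796] and 4.35 [2.26, 9.06]. Without the cell with the most Bcl11b UMIs in each class, the 3-month ratio was 35.1, and without the 2 such cells it was not called. A Bcl11b UMI was seen in 35 of 71, 12 of 28 and 8 of 17 precursors.

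Pbx3, which in other tissues is known from hindbrain circuits for breathing, was also higher in precursors. Its level was 20.3, 27.5 and 25.6 CPM in progenitors and 92.5, 97.7 and 208.6 CPM in precursors. The ratios were 4.55 [2.92, 7.33], 3.55 [1.92, 6.85] and 8.14 [3.66, 21.3], so the direction was the same in every library.

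Meis2 was already present in progenitors, at 136 CPM [116, 158], 206 CPM [171, 247] and 282 CPM [222, 352], and 42 of 47, 21 of 24 and 10 of 10 progenitors had a UMI. In precursors it was at 351 CPM [315, 390], 472 CPM [405, 548] and 891 CPM [773, 1022]. The ratios were 2.58 [2.15, 3.11], 2.29 [1.80, 2.91] and 3.16 [2.42, 4.16]. The precursors were uneven. The middle 50% of cells ran from 0 to 413 CPM in the P10 control, against 56.7 to 200.4 CPM in progenitors. Median UMIs per cell were 13582 in these precursors and 26526 in these progenitors, and the part of depth in the spread was not tested. Without the cell with the most Meis2 UMIs in each class the P10 mutant ratio was 1.88 and no longer called. With stages set from marker UMIs in single cells, without clusters, the P10 control ratio was 0.358.

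In the P10 control Meis2 and Bcl11b UMIs were mostly seen in different precursors, although a missing UMI does not show a missing transcript. Of 71 precursors in the P10 control, 30 had a Meis2 UMI only, 24 a Bcl11b UMI only, 11 both and 6 neither. In the P10 mutant these counts were 12, 5, 7 and 4 of 28 cells, and in the 3-month mutant 8, 5, 3 and 1 of 17. Most P10 mutant precursors with a Bcl11b UMI thus had a Meis2 UMI too. The overlap to be had from the shares of cells alone was not worked out. In immature VSNs of the P10 control, by contrast, 124 of 274 cells had both, 24 Meis2 only, 78 Bcl11b only and 48 neither.

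Bcl11a was the member called lower in precursors. In the P10 control it went from 46.1 CPM [35.1, 59.4] in progenitors to 16.9 CPM [9.85, 27.1] in precursors, a ratio of 0.367 [0.2004, 0.638]. The P10 mutant values were 39.6 and 21.7 CPM and the 3-month values 58.6 and 43.5 CPM, with ratios of 0.549 [0.212, 1.27] and 0.742 [0.301, 1.74] that were not called. Meis1 differed by less than the call in every library, with ratios of 1.68, 0.935 and 1.93. Pbx2 was at 29.7 and 22.9 CPM in the P10 control, a ratio of 0.771 [0.438, 1.33]. Meis3 had 1 to 5 UMIs in every progenitor and precursor class and was not compared.

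From precursors to immature VSNs, 2 of 6 members were called in the control (29.1% of all genes), 1 of 5 in the P10 mutant (27.6%) and 0 of 5 at 3 months (26.2%). These shares are near or below those of all genes. Meis2 reached 1145 CPM [1108, 1184], 948 CPM [898, 1001] and 1617 CPM [1503, 1737] in immature VSNs, with ratios of 3.26 [2.92, 3.65], 2.01 [1.71, 2.37] and 1.81 [1.55, 2.13]. The P10 mutant ratio stood at the edge of the call. Bcl11b reached its highest lineage level here, at 333 CPM [313, 354], 358 CPM [327, 391] and 220 CPM [179, 267], but the ratios of 1.56, 1.43 and 1.15 were under the call.

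Pbx2 was the member that was lower in immature VSNs. It had 9 UMIs in 274 immature VSNs of the P10 control, or 2.94 CPM [1.34, 5.57], against 22.9 CPM [14.5, 34.3] in precursors, a ratio of 0.128 [0.0523, 0.288]. The P10 mutant values were 5.78 and 24.4 CPM, from 8 and 9 UMIs, which was too few to compare. Macrophages, monocytes and neutrophils held Pbx2 at 37.7, 34.6 and 22.1 CPM, and free RNA was not corrected in the main values. With the level of those cells subtracted, the Pbx2 call was lost. That level was above both classes compared, so nothing was left of either and the loss was set in advance. The subtraction therefore cannot show what part free RNA had in the ratio.

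From immature to mature VSNs, Bcl11a and Bcl11b went in opposite directions. There were 3 of 6 members called in the control (26.4% of all genes), 3 of 6 in the P10 mutant (22.4%) and 4 of 6 at 3 months (27.4%). Bcl11b was at 96.7 CPM [84.8, 110], 102 CPM [86.1, 121] and 73.4 CPM [57.6, 92.1] in mature VSNs, with ratios of 0.291 [0.252, 0.335], 0.286 [0.235, 0.346] and 0.333 [0.244, 0.454]. Bcl11a went from 22.8 to 101.6 CPM in control VSNs and from 33.98 to 122.8 CPM in P10 mutant VSNs, with ratios of 4.45 [3.40, 5.89] and 3.62 [2.60, 5.11]. In the 3-month mutant the Bcl11a values were 43.2 and 82.3 CPM and the ratio of 1.91 [1.16, 3.28] was not called. With stages from marker UMIs, the Bcl11b ratio was 0.923 for control cells and 1.51 for 3-month cells, while the P10 control ratio of Bcl11a kept its call in all 12 alternatives run.

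Pbx2 was higher in mature than in immature VSNs, at 17.0, 19.0 and 31.7 CPM, with ratios of 5.79 [2.78, 13.5], 3.29 [1.44, 8.40] and 7.35 [1.88, 63.3]. These rest on 9, 8 and 2 UMIs in immature VSNs, and with stages from marker UMIs the P10 control ratio was 0.701. The calls of both P10 libraries were lost with the myeloid level subtracted, and those of both mutants with the neutrophil level subtracted. In both P10 libraries the myeloid level was above both VSN classes, so that loss was set in advance. The same holds for the neutrophil level of 36.9 CPM in the 3-month mutant. Pbx3 was at 140, 132 and 164 CPM in immature and 121, 125 and 89.3 CPM in mature VSNs, and its ratios of 0.866, 0.945 and 0.544 [0.397, 0.749] were not called. Meis2 and Meis1 were called lower only in the 3-month mutant, at 0.191 [0.167, 0.219] and 0.391 [0.192, 0.785]. The Meis1 ratio was 0.631 as a mean over cells and 0.436 without the 2 cells with the most UMIs in each class, and neither was called. With stages from marker UMIs the Meis2 ratio was 0.69 and not called. In immature VSNs the markers of main olfactory neurons, which held Meis2 at 1116 CPM in the P10 control, summed to 14.0, 10.1 and 269.8 CPM, with 5, 3 and 5 of 5 seen and Cnga2 among them at 3 months. The immature VSNs had a median of 12320.5, 12681.5 and 3226 UMIs. The part of these cells and of depth in the 3-month ratios was not tested. V2R cells were 31 of the 49 mature VSNs of that library, and 27 of 169 and 15 of 69 at P10.

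**Figure D1:**
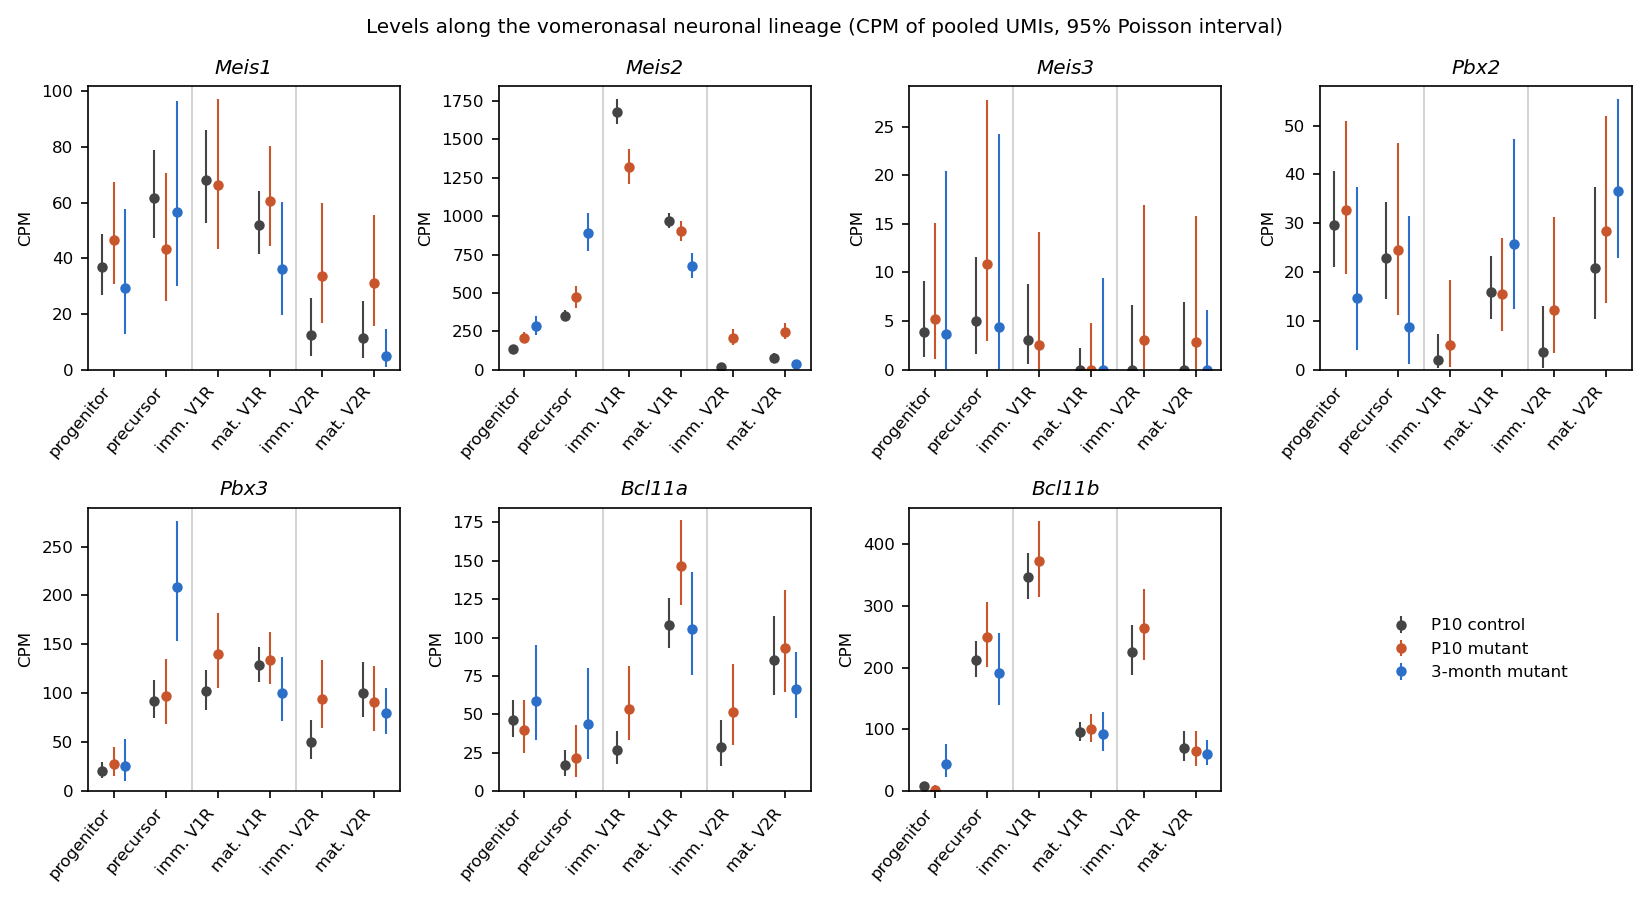
Level in CPM (vertical axis, linear and starting at 0) of each member in progenitors, precursors, and immature and mature V1R and V2R VSNs (horizontal axis). Points are pooled UMIs of 1 library each, coloured by library, and bars are exact Poisson 95% intervals. Classes under 10 cells are left out. Meis2 is high in V1R cells and low in V2R cells, at 970.1 against 77.9 CPM in mature VSNs of the P10 control. Bcl11b at P10 is highest in immature V1R cells. In immature V2R cells it is near the level of precursors, at 226 against 213 CPM in the P10 control.

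The receptor families were compared next, to see which members differ between apical and basal neurons. Immature VSNs with a called family numbered 75 V1R and 42 V2R in the control and 23 and 19 in the P10 mutant. The 3-month mutant had 8 and 5, too few to compare. Mature VSNs numbered 105 V1R and 27 V2R in the control, 37 and 15 in the mutant of the same age and 17 and 31 at 3 months. Different sub-clusters held the mature VSNs: sub-clusters 1 and 5 held 83 and 51 of the 169 control cells, sub-cluster 21 held 36 of 69 P10 mutant cells and sub-cluster 14 held 47 of 49 cells at 3 months. The median UMIs per mature VSN ran from 19317 to 25488 over these 6 classes.

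In mature VSNs, 2 of 6 members were called between V1R and V2R cells of the control (9.79% of all genes compared), 1 of 6 in the P10 mutant (5.44%) and 1 of 5 at 3 months (8.35%). In immature VSNs, 3 of 5 were called in control cells (9.43%) and 1 of 5 in P10 mutant cells (7.52%). Every one of these calls was higher in V1R cells, and Meis2 was called in all 5 comparisons.

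Meis2 in mature V1R VSNs was at 970.1 CPM [923, 1019], 900.4 CPM [835, 970] and 673 CPM [594, 760]. In mature V2R VSNs it was at 77.9 CPM [55.9, 105.7], 246 CPM [197, 304] and 38.2 CPM [24.2, 57.4]. The V1R intervals lay above the V2R intervals in each library. The ratios were 12.5 [9.14, 17.4], 3.66 [2.92, 4.62] and 17.6 [11.5, 28.3]. In the P10 control 1 of the 27 V2R cells held 38 of the 41 Meis2 UMIs, and without the cell with the most UMIs in each class the ratio was 156 [53.2, 756].

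In immature VSNs the same split was already present. Meis2 was at 1678 CPM [1599, 1760] in V1R and 14.3 CPM [6.19, 28.2] in V2R cells of the P10 control, a ratio of 117 [59.3, 272]. In the P10 mutant it was at 1318 CPM [1207, 1436] and 207 CPM [161, 263], a ratio of 6.36 [4.93, 8.32]. All 68 Meis2 UMIs of the 19 immature V2R cells of that library came from 1 cell, and the other 18 had none. With stages from marker UMIs the immature ratios were 10.6 and 2.66, in the same direction.

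Shares of cells gave the same order. After every cell was thinned to 1000 UMIs, a Meis2 UMI was seen in 55.1% [44.7, 65.2] of 98 mature V1R VSNs of the P10 control, leaving out 7 shallower cells, and in 4% [0.101, 20.4] of 25 mature V2R VSNs, leaving out 2. Without thinning the shares were 85.7% and 14.8%, at median depths of 19317 and 22589 UMIs. In macrophages, monocytes and neutrophils together, which should lack Meis2, the thinned share was 2% [0.548, 5.04] of 200 cells at a median of 10239 UMIs. The interval of the thinned V2R share takes in that background share, and the interval of the V1R share lies above it.

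Not every V1R neuron had a Meis2 UMI. None was seen in 15 of 105 mature V1R VSNs of the control and in 7 of 37 of the P10 mutant. All 17 of the 3-month mutant had one, which is 100% [80.5, 100]. The cells without one were shallow, with a median of 2063 UMIs against 21767.5 in the other 90 of the P10 control, and 2613 against 26692 in the P10 mutant. At that depth an absent UMI does not show an absent transcript. The 15 control cells held Gnai2, the apical G protein subunit, at 2617 CPM, against 3526 CPM in the other 90, and Gnao1, the basal one, at 32.7 against 19.9 CPM. Meis1, Pbx3 and Bcl11b, each seen in 1 of the 15 cells, stood at the same 32.7 CPM, so this Gnao1 value is near the floor. The 7 mutant cells held Gnai2 at 792 CPM, against 2772 CPM in the other 30, and Gnao1 at 453 against 81.0 CPM. No intervals were worked out for these groups of shallow cells.

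Meis1, the paralogue best known from blood stem cells, showed a V1R bias of its own. In mature VSNs of the P10 control it was at 51.8 CPM [41.4, 64.1] in V1R and 11.4 CPM [4.18, 24.8] in V2R cells, a ratio of 4.55 [2.00, 12.7]. In immature VSNs it was at 68.0 CPM [52.8, 86.1] and 12.5 CPM [5.04, 25.8], a ratio of 5.42 [2.49, 14.0]. In the P10 mutant the ratios were 1.94 [0.994, 4.16] in mature and 1.98 [0.944, 4.43] in immature VSNs and were not called. The 3-month mutant had 14 and 3 UMIs, too few to compare. In the P10 control, 37 of the 37 immature V1R VSNs with a Meis1 UMI also had a Meis2 UMI, and 47 of 48 mature ones did. Most V1R VSNs had a Meis2 UMI in any case, 65 of all 75 immature and 90 of all 105 mature ones.

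The other members were close between the families. Bcl11b was at 347 CPM [311, 385] in V1R and 226 CPM [188, 269] in V2R immature VSNs of the P10 control, a ratio of 1.54 [1.25, 1.90], and P10 mutant cells held it at 372 and 265 CPM, a ratio of 1.40 [1.07, 1.85]. Both intervals left out 1 but the ratios were under the fold of 2. In mature VSNs the Bcl11b ratios were 1.37 [0.953, 2.02], 1.54 [0.959, 2.58] and 1.55 [0.947, 2.53]. Bcl11a had ratios of 1.27, 1.57 and 1.58 in mature VSNs, and 0.941 and 1.03 in immature ones. Pbx2 was compared in mature VSNs only, with ratios of 0.759, 0.546 and 0.703 and intervals that held 1. Pbx3 was higher in immature V1R VSNs of the P10 control, at 102 against 50.2 CPM, a ratio of 2.03 [1.33, 3.21], but the call was lost under 5 of 15 alternatives. In the P10 mutant its ratio was 1.48 [0.939, 2.39], and in mature VSNs it was 1.28, 1.48 and 1.26.

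**Figure D2:**
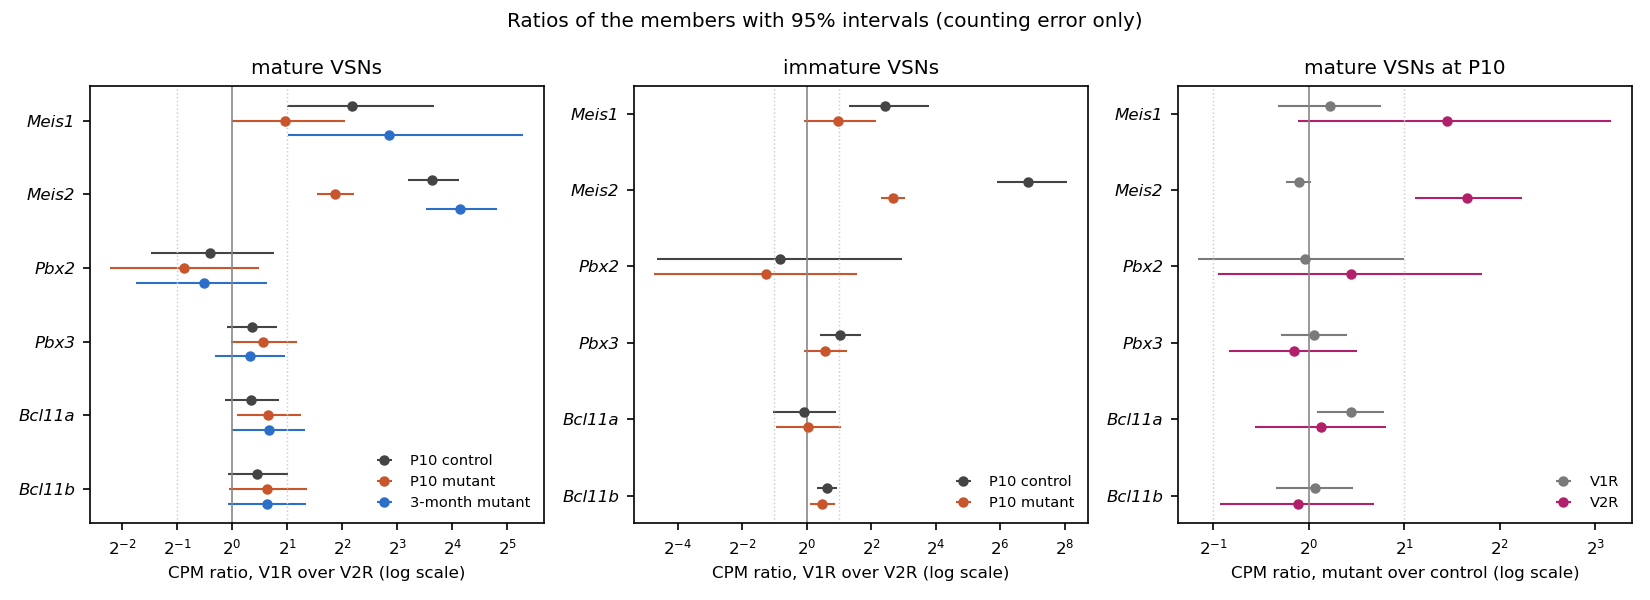
Ratios of CPM (horizontal axes, log scale) for the members by gene (vertical axes), with 95% intervals of counting error as bars and a line at 1, for V1R over V2R cells in mature and in immature VSNs, and for the mutant over the control in mature VSNs at P10. Dotted lines mark folds of 2. Meis2 stands farthest to the right in the V1R over V2R comparison of mature VSNs, at 12.5, 3.66 and 17.6.

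Stage differences were also taken within each family, so the mix of cells called V1R and V2R by receptor does not enter. A receptor call can still join unlike cells. In the P10 mutant 6 of 15 mature and 1 of 19 immature V2R cells held 5 or more Meis2 UMIs. From immature to mature V1R VSNs, 3 of 6 members were called in control cells (23.6% of all genes) and 2 of 5 in P10 mutant cells (17.6%). From immature to mature V2R VSNs, 4 of 4 were called in control cells (18.3%) and 1 of 5 in P10 mutant cells (18.7%). Bcl11b was lower in mature cells in all 4 of these comparisons, with ratios of 0.278 [0.229, 0.336] and 0.270 [0.202, 0.358] in V1R cells and 0.311 [0.210, 0.452] and 0.246 [0.148, 0.393] in V2R cells. Bcl11a was higher in mature V1R cells of both P10 libraries, at 4.02 [2.67, 6.28] and 2.74 [1.71, 4.60], and in mature V2R cells of the P10 control, at 2.98 [1.65, 5.65]. In mature V2R cells of the P10 mutant its ratio of 1.80 [0.976, 3.45] was not called. As a mean over cells, the control ratios were 1.93 for Bcl11a in V1R cells and 0.664 for Bcl11b in V2R cells, and with stages from marker UMIs the Bcl11b ratio in V1R cells was 0.698. None of these 3 was called.

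The other calls within families rested on few UMIs or cells, or stood near the fold. Pbx2 had 26 UMIs in mature and 2 in immature V1R cells of the P10 control, a ratio of 7.93 [1.99, 69.0]. Pbx3 was at 100.7 against 50.2 CPM in V2R cells of the P10 control, a ratio of 2.01 [1.25, 3.29] at the edge of the call. The Meis2 ratio of 5.43 [2.51, 13.4] in V2R cells of the P10 control rested on 1 cell, and without the cell with the most UMIs in each class it was 0.537. In V1R cells Meis2 was lower in mature than in immature VSNs without passing the fold, at 0.578 [0.540, 0.620] in control and 0.683 [0.609, 0.767] in P10 mutant cells.

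The mutant was then compared with the control at P10 to see whether the members differ where AP-2ε is made. In mature V1R VSNs the transgene product was plain, with 505 Tfap2e UMIs in the mutant and 1 in the control, or 650.5 and 0.610 CPM. None of the 6 members compared was called there, against 5.56% of all genes. At so small a share, no call among 6 genes is not particular to the members. Their ratios were 1.17 for Meis1, 0.928 [0.848, 1.01] for Meis2, 0.975 [0.448, 2.00] for Pbx2, 1.04 [0.815, 1.32] for Pbx3, 1.35 [1.06, 1.72] for Bcl11a and 1.04 [0.785, 1.38] for Bcl11b. The interval of Meis1 reached up to 1.69. Apart from Pbx2, which had 12 and 26 UMIs, every interval lay within a fold of 2 in either direction. Genotype and library cannot be told apart in these values. The 5 markers of mast cells summed to 401 CPM in the control cells, with 5 seen, and to 0 CPM in the mutant cells, and their part in the ratios was not tested.

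Other genes tied to the apical and basal types were compared in the same cells. Both lists were chosen with earlier results of these data known, so their differences are no independent contrast to the members. The basal list also holds the transgene Tfap2e, which is 1 of the 4 basal genes counted as higher below. Its difference was set by the genotype and is no separate result. Of 7 apical genes compared 2 were lower and none higher. Nqo1, a quinone reductase, was at 275 CPM in the control and 10.3 CPM in the mutant, a ratio of 0.0375 [0.0161, 0.0745]. Gng13, a G protein gamma subunit, was at 2491 and 842 CPM, a ratio of 0.338 [0.311, 0.367]. Of 7 basal genes compared 4 were higher and 1 lower, with Smchd1 at 49.4 and 395 CPM, a ratio of 8.01 [6.25, 10.4], and Cnpy1 at 4.27 and 111 CPM, a ratio of 26.0 [12.1, 66.5].

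In immature V1R VSNs none of 5 members was called (5.22% of all genes). Meis2 was at 1678 and 1318 CPM, with the ratio at 0.785 [0.710, 0.867], and Bcl11a at 27.0 and 53.5 CPM, a ratio of 1.98 [1.07, 3.64] just under the fold. Bcl11a was called under 5 of the 15 alternatives, at 2.01 to 2.27, and its ratio was 0.799 as a mean over cells. In immature V2R VSNs 1 of 4 was called (4.10%), which was Meis2 at 14.3 and 207 CPM, a ratio of 14.4 [6.93, 34.8]. It rested on the 1 mutant cell with 68 UMIs, and without the cell with the most UMIs in each class it was 0. In mature V2R VSNs 1 of 5 was called (5.22%), again Meis2, at 77.9 and 246 CPM, a ratio of 3.16 [2.16, 4.70]. Without the cell with the most UMIs in each class that ratio was 34.8 [11.4, 173]. The 6 markers of macrophages summed to 11.4 CPM in mature V2R VSNs of the control, with 3 seen, and to 665 CPM in those of the mutant, with 5 seen. The part of macrophage RNA in the ratio was not tested.

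The Meis2 UMIs of mature V2R VSNs came from few cells in each library, so these cells are described 1 by 1. A limit of 5 UMIs was chosen after the values had been seen. It was met by 1 of 27 mature V2R VSNs of the control, by 6 of 15 of the P10 mutant, or 40% [16.3, 67.7], and by 2 of 31 at 3 months. Of mature V1R VSNs it was met by 71 of 105, 30 of 37 and 14 of 17. The intervals of the V2R shares of the P10 libraries, 0.0937% to 19.0% in the control and 16.3% to 67.7% in the mutant, overlap.

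The 6 cells of the P10 mutant held 11 to 20 Meis2 UMIs each. Their leading receptor genes all differed: Vmn2r122 with 289 UMIs, Vmn2r124 with 109, Vmn2r73 with 158, Vmn2r-ps130 with 142, Vmn2r7 with 10 and Vmn2r110 with 8. Together they had 767 V2R and 5 V1R UMIs. They held Gnai2 at 3157 CPM [2892, 3440], with UMIs in all 6, and Gnao1 at 139 CPM [88.4, 209]. The other 9 mature V2R VSNs of that library held Gnai2 at 31.9 CPM [11.7, 69.4] and Gnao1 at 638 CPM [529, 763]. Tfap2e was at 394 CPM in them and 569 CPM in the other 9. Of the 6, 1 was among the 281 barcodes with the highest Scrublet scores.

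The control cell with 38 Meis2 UMIs had 109 UMIs of Vmn2r67 and 1 V1R UMI. It held 158 Gnai2 UMIs and none of Gnao1 or Tfap2e. In the 3-month mutant the 2 cells led with Vmn2r100, at 285 UMIs, and Vmn2r7, at 9, and held Gnai2 at 3019 CPM and Gnao1 at 53.9 CPM. The 29 others held Gnai2 at 93.9 CPM and Gnao1 at 577 CPM. Of the cells in the 3 libraries, 2 led with Vmn2r7 and had 10 and 11 V2R UMIs, while Vmn2r110 led with 8, so the receptor call of these 3 cells is less firm than that of the other 6.

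**Figure D3:**
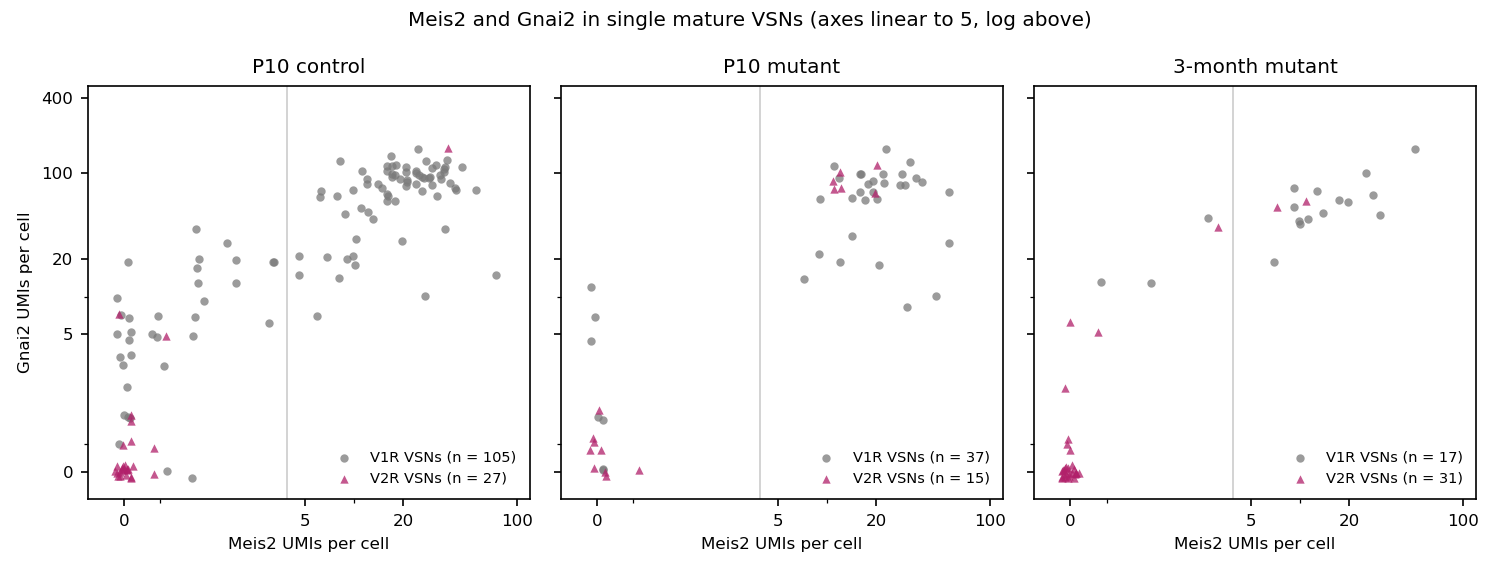
Meis2 UMIs (horizontal axis) against Gnai2 UMIs (vertical axis) in single mature VSNs, 1 panel per library, with V1R cells as grey circles and V2R cells as magenta triangles and a grey line at the limit of 5 Meis2 UMIs. Both axes are linear to 5 and logarithmic above, and points are jittered. Right of the line and high in Gnai2 lie 1, 6 and 2 V2R cells among the V1R cells.

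The 3-month mutant was set against the P10 mutant in mature VSNs, where age and library cannot be told apart. None of the 6 members compared was called in V1R cells (10.3% of all genes), with ratios from 0.594 [0.302, 1.10] for Meis1 to 1.66 [0.643, 4.20] for Pbx2. Meis2 was at 673 and 900.4 CPM, a ratio of 0.748 [0.646, 0.863]. In V2R cells 1 of 5 was called (10.3%), which was Meis2 at 38.2 and 246 CPM, a ratio of 0.155 [0.0935, 0.248]. That value rests on the 2 cells of 31 and 6 cells of 15 described above. Bcl11b was at 59.8 and 65.1 CPM, a ratio of 0.919 [0.530, 1.62].

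Outside the VSN lineage, each member had classes of its own. Meis2 was broad in epithelium and mesenchyme. In gland and secretory epithelium it was at 557 CPM [538, 577], 630.2 CPM [605, 656] and 205 CPM [193, 217]. Median UMIs per gland cell were 18045 and 17244 at P10 but 671.5 at 3 months, and the part of this depth in the level was not tested. Basal epithelial cells held Meis2 at 423, 470.4 and 364 CPM, fibroblasts at 368, 431 and 294 CPM, sustentacular cells at 286, 300.1 and 358 CPM, and smooth muscle and pericytes at 248, 245 and 241 CPM. In osteoblasts it was at 63.3, 63.1 and 138 CPM. Macrophages, monocytes and neutrophils held it at 10.5, 14.9 and 12.6 CPM, which is the background that the other values should be read against. The 23 main olfactory sensory neurons of the P10 control held it at 1116 CPM, so a high Meis2 level was seen in neurons other than V1R VSNs too.

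Meis1 outside the lineage was seen in the same epithelia. It was at 67.7, 87.3 and 32.4 CPM in gland and secretory epithelium and at 55.6, 55.2 and 40.5 CPM in basal epithelial cells. In fibroblasts it was at 27.1, 39.4 and 20.1 CPM. Osteoblasts of the 3-month mutant held 45.9 CPM. In blood cell classes other than B cells it stayed under 10 CPM. Main olfactory sensory neurons of the P10 control held it at 74.97 CPM [52.8, 103].

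Meis3, which is known from hindbrain patterning, had its highest levels in mesenchyme. It was at 35.7 CPM [30.5, 41.5], 25.5 CPM [20.8, 30.8] and 12.4 CPM [4.97, 25.5] in osteoblasts, at 22.5, 25.3 and 19.3 CPM in smooth muscle and pericytes, and at 21.9, 18.2 and 13.1 CPM in fibroblasts. Sustentacular cells held 12.6, 13.7 and 15.8 CPM, T cells 14.1, 11.9 and 8.47 CPM, and olfactory ensheathing and Schwann glia 7.64, 12.9 and 5.97 CPM. Mature VSNs had 0, 1 and 0 Meis3 UMIs in 169, 69 and 49 cells, with upper bounds of 1.49, 4.07 and 3.66 CPM. It had too few UMIs to be compared in any of the 24 comparisons, and myeloid cells held it at 4.77, 4.69 and 5.98 CPM.

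Pbx2 was low and broad. It was at 48.4, 40.1 and 23.0 CPM in olfactory ensheathing and Schwann glia, at 32.7, 35.5 and 17.2 CPM in endothelial cells and at 17.5, 17.9 and 21.1 CPM in sustentacular cells. Every class of at least 50 cells in the P10 libraries other than immature VSNs held between 6.06 and 48.4 CPM. Pbx3 was narrower, with fibroblasts at 67.2, 50.4 and 59.9 CPM and gland cells at 4.82, 5.10 and 6.72 CPM. Main olfactory sensory neurons of the P10 control held Pbx3 at 138 CPM [107, 175], near the 121 CPM [108, 136] of mature VSNs.

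Bcl11a and Bcl11b divided the lymphocytes. Bcl11a, needed for B cell development, was at 68.9 CPM [54.2, 86.4], 79.96 CPM [66.8, 95.01] and 68.0 CPM [38.9, 110] in B cells and at 6.06, 1.32 and 4.24 CPM in T cells. Bcl11b, needed for T cell commitment, was at 131 CPM [101, 167], 179 CPM [150, 212] and 216 CPM [199, 235] in T cells and at 2.76, 1.86 and 0 CPM in B cells. Dendritic cells held Bcl11a at 67.5, 51.3 and 66.7 CPM. In epithelium, basal epithelial cells held Bcl11a at 48.7, 38.9 and 48.0 CPM and Bcl11b at 25.3, 17.0 and 12.4 CPM. Main olfactory sensory neurons of the P10 control held Bcl11a at 107 CPM [80.4, 140] and Bcl11b at 197 CPM [159, 240].

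**Figure D4:**
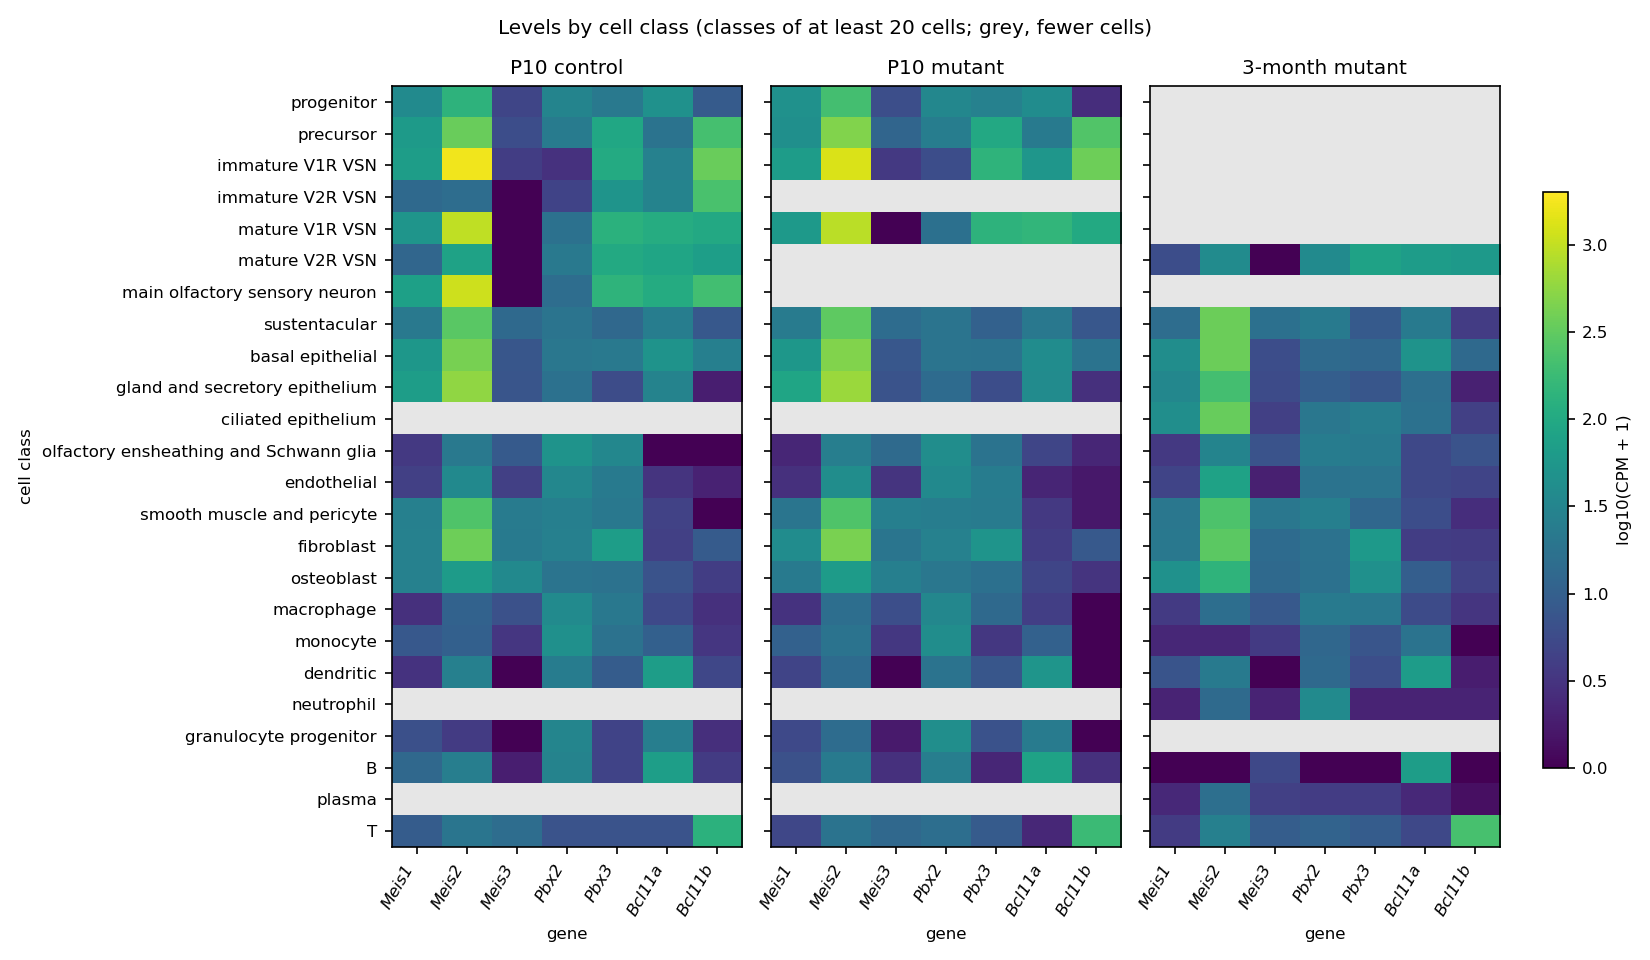
Level of each member gene (horizontal axis) in each cell class (vertical axis), as log10(CPM + 1) in colour, 1 panel per library, with classes of fewer than 20 cells in grey. Bcl11b stands out in T cells and VSNs, Bcl11a in B cells, dendritic cells and mature VSNs, and Meis3 is faint in neurons.

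Genes with a like pattern were named over 60 profiles, each a cell class of at least 20 cells in 1 library, by Pearson's r of log2(CPM + 10) among 14118 genes. The profiles share libraries and are not independent, so r is a description. Meis1 and Meis2 were each the closest gene to the other, at r = 0.905. Azin2 (r = 0.828) was also among the 3 genes most like Meis2. Meis1 was next closest to Eya2 (r = 0.866) and Mpped2 (r = 0.858). Pbx3 was closest to Nsg1 (r = 0.929), Samd14 (r = 0.909) and Eid1 (r = 0.904), and Bcl11b to Mtcl1 (r = 0.892), Rundc3b (r = 0.892) and Mturn (r = 0.877). Bcl11b and Pbx3 had r = 0.726 with each other. Bcl11a was less like any gene, with Slc9a7 (r = 0.726), Fam221a (r = 0.715) and Pafah1b3 (r = 0.707), and its r with Bcl11b was 0.310. Meis3 was closest to Gpc4 (r = 0.828), Efemp2 (r = 0.814) and Vasn (r = 0.785), and Pbx2 had Rbm7 (r = 0.772) and Mapre1 (r = 0.669) among its 3.

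Other genes of the TALE class and genes of partners of the members were followed as lists. Of a list of 12 other TALE homeobox genes, 1 had enough UMIs to compare between mature V1R and V2R VSNs of the P10 control, and it was not called. In immature VSNs 4 could be compared and 2 were higher in V1R cells. These were Pknox2, with 39 UMIs in V1R and 1 in V2R cells, a ratio of 21.7 [3.68, 881], and Pbx4, with 22 and 1 UMIs, a ratio of 12.3 [1.98, 506]. Both were then lower in mature than in immature V1R VSNs of that library, at 0.0939 [0.0325, 0.223] and 0.333 [0.150, 0.702]. In immature V1R VSNs of the P10 mutant Pknox2 had 2 UMIs, a ratio to the control of 0.131 [0.0153, 0.505]. Of 39 Hox genes, which encode the usual partners of Meis and Pbx proteins, none had the 20 UMIs needed in any of the 24 comparisons.

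The chromatin partners of Bcl11 proteins were compared between the receptor families too. None of 13 NuRD subunits and none of 12 BAF subunits compared was called between mature V1R and V2R VSNs of the P10 control, with median log2 ratios of 0.23 and 0.02 against 0.01 over all genes. In immature VSNs of that library 1 of 13 NuRD subunits was higher in V1R cells, the deacetylase Hdac2 with a ratio of 2.15 [1.63, 2.88], and 1 of 12 BAF subunits. From immature to mature VSNs of the P10 control, where 26.4% of all genes were called in either direction, 1 of 13 NuRD subunits was lower, Hdac2 with a ratio of 0.254 [0.212, 0.303], and 3 of 14 BAF subunits were lower, with Smarce1 at 0.397 [0.337, 0.466] and Actl6b, a subunit of the neuronal complex, at 0.475 [0.366, 0.613]. The medians were -0.36 and -0.51 against -0.03 over all genes. In the P10 mutant 3 of 13 NuRD and 3 of 13 BAF subunits were lower and none higher, Hdac2 and Actl6b among them, against 22.4% of all genes. In the 3-month mutant 3 of 13 NuRD subunits were lower and 1 higher, and 3 of 12 BAF subunits were lower, against 27.4%. Counted in either direction, these shares are near or below those of all genes. Lower alone were 11.6%, 10.7% and 11.9% of all genes. BAF subunits stood above these shares in each library and NuRD subunits in both mutants, from few genes. The mutant medians were -0.52 and -0.70 against -0.09 at P10, and -0.11 and -0.57 against -0.03 at 3 months. In the apical and basal lists, 5 of 7 apical genes were higher and 5 of 8 basal genes lower in mature V1R than in V2R VSNs of the P10 control, with median log2 ratios of 2.81 and -3.29. Among P10 mutant VSNs 3 of 6 apical genes were higher, and of 8 basal genes 4 were lower and 1 higher, with medians of 0.94 and -0.62. In the 3-month mutant 4 of 6 apical genes were higher and 1 lower, and 3 of 8 basal genes were lower, with medians of 2.77 and -0.69. These lists are no independent check of the receptor split, because they were chosen with earlier results of these data known. Gnao1 and Gng13 also served to name mature VSNs, and in the mutants the basal list holds the transgene Tfap2e.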

How the data were processed

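The deposited values are whole counts of UMIs per gene and barcode, not normalised, from 3 libraries of papain-dissociated, frozen cell suspensions (10x Genomics 3' kit). Per the file headers the authors ran Cell Ranger 4.0.0 on the P10 libraries and 6.0.1 on the 3-month one. The submitters' processing notes name mm10, bcl2fastq and Seurat 3.2.3. The members and gene lists were chosen with earlier results of these data known.

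Barcodes with 200 to 9000 genes and at most 10% mitochondrial UMIs were kept. These held 62269401, 53961794 and 57257139 UMIs. Cells of all libraries were clustered together in scanpy 1.11.5 on 2000 variable genes (30 components, 20 neighbours, Leiden), without the members, Tfap2e and the Vmn1r and Vmn2r genes, and lineage clusters again on 15 components at resolution 3. A name needed 3 markers at 2 times the median cluster. Scoring and mixed sub-cluster rules were chosen with the clusters in view, and rebuilt names can differ from the study's. Classes of 10 or more cells were compared, since several held fewer than 20. Intervals are Poisson for CPM, conditional binomial for ratios and Clopper-Pearson for shares, from scipy 1.17.1. The scripts were tested on simulated data. The named genes were all members, the 3 genes most alike each, and up to 4 genes per list by size of ratio. Of the genes most alike, 2 are not reported here. No correction for free RNA was made in the main values, and few P10 cells were named neutrophil, so macrophages, monocytes and neutrophils together served as background. Alternatives in filters, scaling, names, receptor limits and single cells were run. Of 32285 features, 32235 were found in GENCODE M21.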

Additional observations from a re-analysis of the deposited data

How the results depend on the processing

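Of 44 calls of members, 23 held in every one of the alternatives run for them and 21 were lost in at least 1, and 471 of 535 values under alternatives stayed within the counting interval of the main value. Stages set from marker UMIs in single cells ended many calls. Along the lineage there were 15 calls against 23, but 7 of the 23 were kept, 9 were in comparisons that could not be run, 7 were lost in comparisons that were run, 1 of them called in the opposite direction, and 7 others were gained. Between mature V1R and V2R VSNs 1 of 4 calls was kept and the other 3 were in comparisons not run. Within families 1 of 10 was kept, with 7 not run and 2 lost. The same setting turned the ratio of Meis2 from progenitors to precursors of the P10 control to 0.358, of Pbx2 from immature to mature VSNs of the P10 control to 0.701 and of Bcl11b from immature to mature VSNs of the 3-month mutant to 1.51, and the cause was not tested. At a mitochondrial limit of 5% there were 14 calls along the lineage, with 11 kept, 11 not run for want of cells, 1 lost and 3 gained. Of the 2 calls between the P10 mutant and control, 1 was left without the cell, or the 2 cells, with the most UMIs in each class and at 95% of receptor UMIs of 1 family, and there were 4 with the myeloid level subtracted. A call was gained under 10 of the 15 alternatives, for Bcl11a, Pbx3 or Meis1 in immature VSNs. The Meis2 ratio in immature V2R VSNs was 0 under the first 3 of these settings and at the 5% limit. The Meis2 ratio of mature over immature V2R VSNs in the P10 control was 0.537 and 0.429 without the cell or the 2 cells. The share of mature V1R VSNs of the P10 control with a Meis2 UMI, 55.1% at 1000 UMIs, was 76.3% at 2000 and 85.7% without thinning. The alternatives with the myeloid level or without 2 cells, and the ratios within families, were chosen after seeing the data. No paired analysis was possible because each group has 1 library. Depth limits Meis3 and Pbx2 most, which had few UMIs in neurons.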
